A study of Mus musculus with 35 samples.

Results

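Gene expression 48 h after removal of most of the liver was compared with sham surgery in old male mice. The arrays were chosen by their labels, 3 from old livers 48 h after partial hepatectomy (PH) and 2 from old livers 48 h after sham surgery, 5 of 35 arrays in the series. The genes were all those with a probe set that carries 1 gene symbol, which made 34945 of 45101 probe sets and 18193 genes. The mice were of the CB6F1 hybrid strain and 25 to 27 months old. In PH 70% of the liver was removed, and in sham surgery the liver was handled and left whole. Both were done under avertin and isoflurane. Untreated old livers (0 h, 3 arrays), old livers 24 h and 38 h after PH or sham surgery (3 and 2 arrays at each time) and young livers at 48 h (5 to 6 months, 3 PH and 2 sham arrays) are set beside them where a comparison needs them. Old mice came from the National Institute on Aging and young mice from Jackson Laboratories, so age and supplier cannot be told apart. Nothing in the labels says whether arrays of a group come from different animals. Where several values are given for the livers of a group, each is 1 array. The p-values use 1 spread per gene pooled over all 35 arrays in 14 groups, not that of the 5 arrays alone. They therefore measure only the spread among arrays, which may be technical.

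The liver restores its mass after resection by division of its remaining cells, mostly of hepatocytes, which are quiescent in the uninjured organ. Loss of tissue first induces early response genes and cyclin D1, then the replication genes of S phase, and then the kinases, spindle proteins and cytokinesis factors of mitosis, while the remaining cells go on with metabolic work. Livers of old animals are known to enter this sequence later than young ones.

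The deposited values are log2 signals from RMA, so a difference of 1 is a 2-fold change. Differences are PH minus sham ± the standard error of a limma fit over all 35 arrays, and "rose" and "fell" mark an adjusted p under 0.05. By this rule 1539 genes rose (8.46% of those tested) and 1194 fell (6.56%) in old livers at 48 h. The counts of list members below stand beside these shares, 15.0% in either direction. The balance of the directions depended on the processing: 1234 rose and 1272 fell with quantile normalization repeated, 1283 rose and 1480 fell with the mean of a gene's probe sets, and 3039 rose and 3486 fell with array weights. The changes of at least 2-fold were mostly rises, 424 against 54 falls, and 103 rises and 12 falls reached a log2 difference of 2. Of all genes 59.6% had PH and sham arrays that did not overlap, so a lack of overlap alone marks little. All 2733 calls rest on 2 sham arrays: leaving out sham replicate 2 left 908 calls, 719 higher and 189 lower, and leaving out sham replicate 1 left 1155. Leaving out PH replicate 1, 2 or 3 left 1726, 1764 or 2030. The number of arrays limits the precision. Correlations over genes were 0.993 to 0.996 among PH arrays, 0.995 between the sham arrays and 0.971 to 0.976 across the groups. The median difference of all genes was -0.07. Old livers carried their defining transcripts on all arrays: albumin (Alb) was at 14.91, 14.94 and 14.88 after PH and at 14.89 and 14.91 after sham surgery. In bulk tissue fewer cells of a type and less RNA per cell cannot be told apart.

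Genes of mitosis made up most of the largest rises. Of the 91 measured members of 5 lists of mitotic genes (kinases and cyclins, spindle and checkpoint, condensation and cohesion, anaphase, cytokinesis) 78 rose and 0 fell, with a median difference of 1.93, while 15.0% of all genes passed in either direction. The promoters of the 4 members with the largest rises are shown because cell cycle promoters of this kind are known for a cell cycle homology region (TTTGAA or TTCGAA) and for CCAAT boxes. They run 5′ to 3′ on the gene's strand and cover 250 bases before and 50 bases after the transcription start, from RefSeq (build GRCm38.p6), and capitals mark these motifs on either strand. Birc5 lies at chr11:117848987-117849286 (+ strand), Ube2c at chr2:164769679-164769978 (+ strand), Ect2 at chr3:27153829-27154128 (- strand) and Mki67 at chr7:135716330-135716629 (- strand).
Birc5: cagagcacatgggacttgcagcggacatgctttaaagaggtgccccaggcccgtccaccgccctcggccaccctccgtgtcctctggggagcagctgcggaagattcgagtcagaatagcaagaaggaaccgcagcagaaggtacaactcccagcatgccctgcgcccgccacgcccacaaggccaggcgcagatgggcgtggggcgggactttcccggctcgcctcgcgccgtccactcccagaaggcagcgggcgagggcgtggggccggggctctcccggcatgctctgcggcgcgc
Ube2c: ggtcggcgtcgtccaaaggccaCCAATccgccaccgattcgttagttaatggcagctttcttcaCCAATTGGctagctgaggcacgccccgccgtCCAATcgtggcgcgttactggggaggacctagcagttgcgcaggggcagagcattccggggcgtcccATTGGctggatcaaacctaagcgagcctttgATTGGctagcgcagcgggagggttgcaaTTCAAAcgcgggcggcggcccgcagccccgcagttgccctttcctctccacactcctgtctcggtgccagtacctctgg
Ect2: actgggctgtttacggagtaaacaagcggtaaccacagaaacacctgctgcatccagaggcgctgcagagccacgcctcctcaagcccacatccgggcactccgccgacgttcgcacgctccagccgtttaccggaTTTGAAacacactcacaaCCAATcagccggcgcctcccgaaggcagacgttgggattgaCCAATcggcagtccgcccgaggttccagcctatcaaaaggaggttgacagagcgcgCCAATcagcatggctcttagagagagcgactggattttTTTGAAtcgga
Mki67: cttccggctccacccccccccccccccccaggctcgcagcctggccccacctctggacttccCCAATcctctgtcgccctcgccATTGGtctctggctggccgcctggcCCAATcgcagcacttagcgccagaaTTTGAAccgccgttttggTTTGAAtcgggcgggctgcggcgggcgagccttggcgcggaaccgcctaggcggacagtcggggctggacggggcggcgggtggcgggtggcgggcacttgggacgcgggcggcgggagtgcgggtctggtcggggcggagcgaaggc
The homology region was found 0 times in the Birc5 window, 1 time in Ube2c, 2 times in Ect2 and 2 times in Mki67, and CCAAT 0, 6, 3 and 3 times, with 2 of the 6 in Ube2c overlapping each other as CCAATTGG. A window without a match says only that these letters are not in it. Of the 91 members, 73 had a promoter in the table, and 45 of these (61.6%) held the homology region, 48 (65.8%) held CCAAT and 36 (49.3%) held both. Among all 14452 tested genes with a promoter, the shares were 15.0%, 38.2% and 6.1%. These counts describe the sequences and were not tested.

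Birc5 (survivin), a subunit of the chromosomal passenger complex that corrects kinetochore attachments, was at 11.16, 11.20 and 11.19 in PH livers, against 5.48 and 5.91 in sham livers. It rose by 5.49 ± 0.73 (adjusted p = 1.66e-05, limma). Every PH array lay above both sham arrays by over 5 units, and the 0 h livers (5.70, 6.54 and 5.56) lay with the sham livers. Cdca8 (borealin), of the same complex, rose by 4.71 ± 0.47 (adjusted p = 6.92e-07). Nuf2, of the NDC80 complex that holds microtubules at the kinetochore, rose by 4.40 ± 0.44, and Nusap1, which bundles spindle microtubules, by 4.05 ± 0.40. In the spindle and checkpoint list 27 of 31 members rose and 0 fell, with a median of 1.81.

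Ube2c, the ubiquitin-conjugating enzyme of the anaphase-promoting complex, was at 11.88, 11.80 and 11.41 in PH livers and at 6.60 and 6.86 in sham livers, and it rose by 4.96 ± 0.63 (adjusted p = 9.89e-06). The lowest PH array was far above the highest sham array. With it rose Cdc20, the activator of that complex (3.70 ± 0.45), Ube2s, its chain-extending enzyme (2.29 ± 0.27), and its inhibitor Fbxo5 (1.12 ± 0.25), which lost its call without sham replicate 2. Of the 11 anaphase and mitotic exit genes 7 rose and 0 fell (median 0.68), and 4 rose without sham replicate 2.

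Ect2, the exchange factor that activates RhoA at the division site, was at 9.49, 9.66 and 9.25 after PH, against 4.63 and 4.58 after sham surgery, a rise of 4.87 ± 0.48 (adjusted p = 6.92e-07). Its 0 h livers, at 5.63, 5.24 and 5.28, were also below all PH livers. The scaffold protein anillin (Anln) rose too, with 9.27, 9.49 and 9.22 after PH, against 5.47 and 5.19 after sham surgery, as did the microtubule regulator stathmin (Stmn1, 3.89 ± 0.61) and Cep55 of the midbody (3.76 ± 0.42). Of 13 cytokinesis genes 12 rose and 0 fell, with a median of 2.80, the highest of the 49 lists described.

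Cdk1, the kinase that drives entry into mitosis, was at 12.21, 12.33 and 12.09 in PH livers and at 7.94 and 8.11 in sham livers. It rose by 4.18 ± 0.50 (adjusted p = 4.87e-06), with its partners Ccnb2 (4.14 ± 0.51) and Ccna2 (2.68 ± 0.40), the spindle pole kinase Aurka (3.78 ± 0.42) and the mitotic kinase Pbk (3.73 ± 0.48). In that list 19 of 20 members rose and 0 fell (median 2.47). For Foxm1, a transcription factor known to drive these genes, the probe sets disagreed. The brightest of its 4, which stands for the gene here, did not pass, at 9.03, 9.01 and 8.93 after PH and 8.66 and 8.82 after sham surgery (0.25 ± 0.14, adjusted p = 0.235), while a dimmer one rose by 1.97 (limma adjusted p = 0.000112 over all probe sets).

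Mki67, which coats mitotic chromosomes and is the usual marker of proliferation, was at 10.90, 11.29 and 11.21 after PH, against 6.15 and 6.48 after sham surgery (4.82 ± 0.66, adjusted p = 2.64e-05). One untreated array stood at 8.16 and the others at 6.36 and 6.45, so the groups still did not overlap. The cohesin acetyltransferase Esco2 (4.57 ± 0.59), the condensin subunit Smc2 (3.79 ± 0.52) and topoisomerase Top2a (3.68 ± 0.57), which untangles sister chromatids, rose as well, and 13 of 16 condensation and cohesion genes rose (median 2.10). D17H6S56E-5, to which no role is given here, had the second largest rise of all genes (5.02 ± 0.61).

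**Figure D1:**
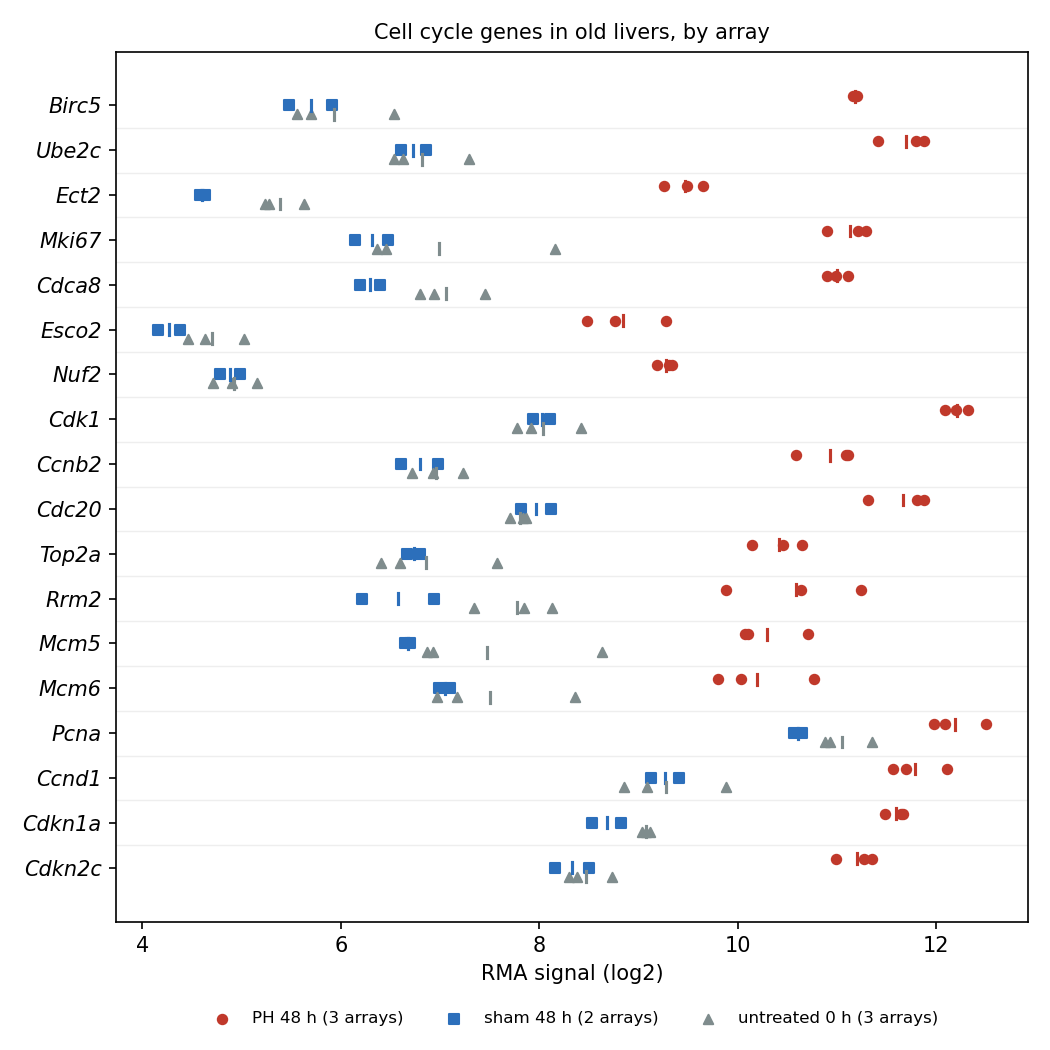
RMA signal (log2, horizontal axis) of 18 cell cycle genes in old livers 48 h after PH (circles), 48 h after sham surgery (squares) and at 0 h (triangles). A symbol is 1 array and a short bar a group mean. For each of the 18 genes all PH arrays lie to the right of all sham and 0 h arrays, as for Birc5, with PH arrays at 11.16 to 11.20 and sham arrays at 5.48 and 5.91.

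Replication genes rose as a smaller but wide group. Rrm2, the regulated subunit of ribonucleotide reductase, which makes deoxynucleotides, was at 9.88, 10.64 and 11.24 in PH livers and at 6.21 and 6.94 in sham livers (4.02 ± 0.60, adjusted p = 6.52e-05). The replicative helicase subunits Mcm5 (3.62 ± 0.62) and Mcm6 (3.15 ± 0.58), the clamp loader Rfc4 (2.29 ± 0.30) and the clamp Pcna (1.58 ± 0.26) rose. In each of these genes replicate 3 was the highest PH array, and for Mcm5 it stood at 10.71, against 10.07 and 10.11 in the others. Of 37 S phase genes 27 rose, with a median of 1.10, and 1 fell. The falling member, named after its value was seen, was the replication gene Cdc45 (-0.40). The lowest difference in the list, -1.37, did not pass. Without sham replicate 1 or 2, 16 or 17 of the 37 rose, and Cdc45 lost its call without either of them or PH replicate 2.

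Among the 21 regulators of entry into the cycle 7 rose and 0 fell (median 0.42), and 2 or 3 rose without sham replicate 1 or 2. Cyclin D1 (Ccnd1), which links growth signals to the cycle, was at 12.11, 11.70 and 11.56 after PH, against 9.13 and 9.41 after sham surgery, and it rose by 2.52 ± 0.54 (adjusted p = 0.00266). The pocket protein gene Rbl1 rose by 2.98 ± 0.45. Cyclin E2 (Ccne2, 1.41 ± 0.39) and the transcription factor E2f1 (0.73 ± 0.17) rose too, but both lost the call without either sham array. The other probe sets of E2f1 were at 0.28 and -0.32, without passing. Cyclin E1 (Ccne1) did not pass, at 8.71, 8.80 and 8.84 after PH and 8.57 and 8.28 after sham surgery (0.35 ± 0.22).

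Inhibitors of the cycle rose beside its drivers. Cdkn1a (p21) was at 11.65, 11.67 and 11.48 in PH livers, against 8.83 and 8.53 in sham livers (2.92 ± 0.46, adjusted p = 0.000112), and Cdkn2c (p18) at 10.99, 11.35 and 11.28, against 8.16 and 8.50 (2.88 ± 0.42). In both genes the groups were separated by over 2 units. Cdkn2d (p19) rose by 1.12 ± 0.28, a call lost without either sham array, so 3 of the 7 inhibitors rose and 0 fell. Cdkn1a is also a p53 target, and 7 of 19 such targets rose and 0 fell (median 0.55). Among them were the receptor Eda2r (1.15 ± 0.19), Phlda3, an inhibitor of Akt (0.96 ± 0.19), and Trp53inp1 (1.04 ± 0.32). Trp53inp1 lost its call without either sham array, PH replicate 1 or PH replicate 3, with the mean of probe sets and with quantile normalization repeated, and its difference from 0 h was -0.18. The list's count was 4 or 3 without sham replicate 1 or 2.

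Genes of chromosome repair, packaging and transport went with them. Of 20 DNA damage and homologous recombination genes 14 rose and 0 fell (median 0.85), including Rad51ap1 (2.40 ± 0.40), Brca1 (2.22 ± 0.34), the histone H2ax (2.14 ± 0.33) and Topbp1 (2.10 ± 0.29). That count was 6 or 9 without sham replicate 1 or 2. Of 19 chromatin genes 13 rose and 0 fell, with the DNA-bending protein Hmgb2 at 3.15 ± 0.40, the ATPase Atad2 at 2.09 ± 0.42 and the histone variant H2az1 at 1.68 ± 0.31, and 8 rose without sham replicate 1. Of 22 nuclear transport and lamina genes 16 rose and 0 fell (median 0.86), led by the importin Kpna2 (2.26 ± 0.25), Tmpo of the inner nuclear membrane (1.48 ± 0.21), the exportin Xpo1 (1.44 ± 0.16) and Rangap1 of the Ran cycle (1.32 ± 0.15). Of 20 tubulin and actin genes 12 rose and 0 fell. Tubb6 was at 12.36, 12.41 and 11.94 after PH and 8.09 and 8.27 after sham surgery (4.05 ± 0.44), and Tubb5 (2.04 ± 0.22), Tubb4b (1.93 ± 0.23) and Tubb2a (1.60 ± 0.27) rose less. Tubulins are near-identical copies that probes may share, and for Tubb6 and Tmpo a dimmer probe set passed in the other direction, so their values are uncertain.

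**Figure D2:**
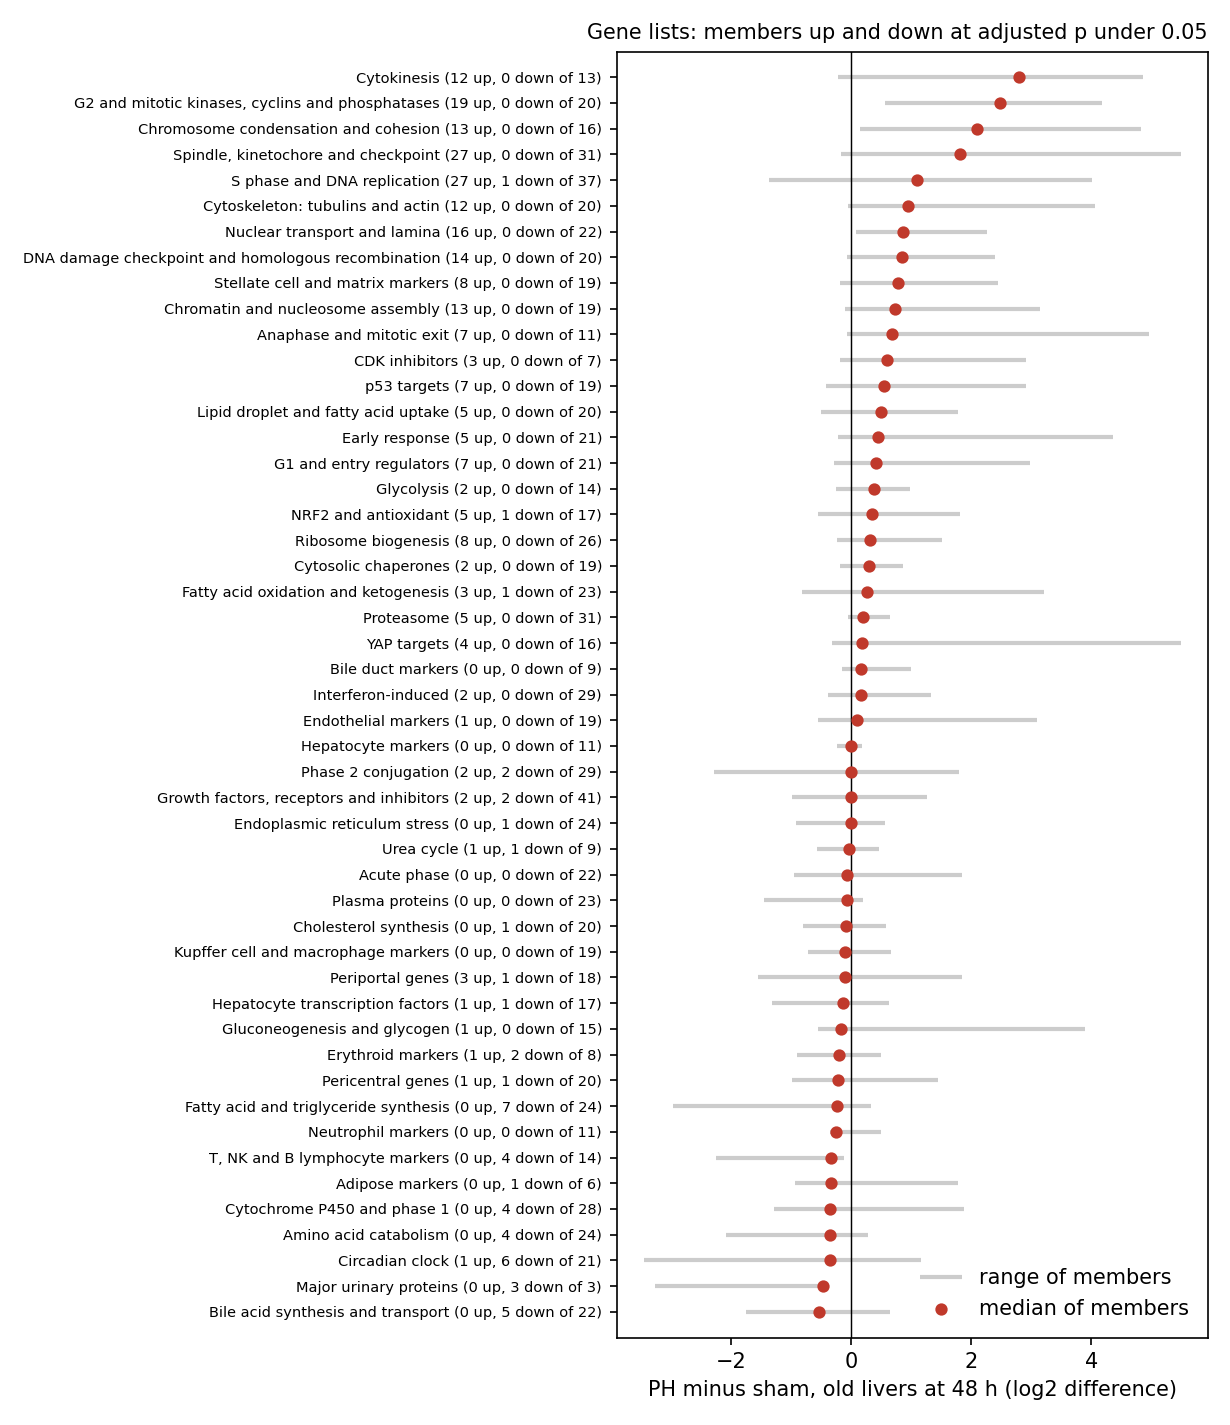
Difference of PH minus sham in old livers at 48 h (log2, horizontal axis) for 49 gene lists, ordered by their median. Points are medians over the measured members, grey lines run from the lowest to the highest member, and brackets give the members that rose and fell. Cytokinesis (12 of 13 up) and the mitotic kinases (19 of 20 up) stand at the top, and bile acid genes (5 of 22 down) at the bottom.

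The sham livers themselves differed from untreated livers, with 2416 genes higher than at 0 h (13.3% of those tested) and 1587 lower (8.72%). The changes were small: 11 of the higher and 174 of the lower genes reached 2-fold. PH against 0 h gave 1507 higher (8.28%) and 1568 lower genes (8.62%). Both comparisons share arrays with PH against sham, so each is given by its own values.

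Early response genes, the transcription factors that cells switch on within minutes of a stimulus, show how this touches single genes. Egr1 was at 11.97, 12.96 and 12.68 in PH livers, against 7.75 and 8.59 in sham livers, a rise of 4.37 ± 0.72 (adjusted p = 0.000196). Untreated livers stood at 11.79, 12.19 and 9.99, so 2 of them were in or near the PH range and the third lay between the PH and sham arrays. Sham livers were lower than these by 3.15 (difference -3.15, adjusted p = 0.00372). Fos was at 10.02, 10.17 and 9.70 after PH, 7.18 and 6.98 after sham surgery and 9.99, 9.42 and 9.40 at 0 h, with a rise of 2.88 ± 0.56 against sham and 0.36 against 0 h (adjusted p = 0.697). Jun (2.41 ± 0.46 against sham, -0.08 against 0 h) and Ier2 (1.04 ± 0.21 and 0.15) also had their lowest mean in sham livers. Of 21 early response genes 5 rose and 0 fell against sham, 0 were higher and 1 was lower in PH livers than at 0 h, and 1 was higher and 6 were lower in sham livers than at 0 h. The mean level of this list relative to 0 h was 0.32, 0.26 and 0.05 in PH livers and -0.74 and -0.66 in sham livers.

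Further genes rose against sham and did not pass against 0 h. Igfbp1, a secreted binding protein of insulin-like growth factors that fasting and injury induce, was at 12.13, 12.43 and 12.94 after PH and 8.78 and 8.41 after sham surgery, a rise of 3.90 ± 0.71. Its 0 h livers, at 12.66, 11.11 and 11.52, overlapped the PH livers (0.74, adjusted p = 0.482). Angptl4, an inhibitor of lipoprotein lipase, rose by 1.68 ± 0.45 against sham and was at -0.07 against 0 h, and it lost its call without either sham array. The nucleolar genes Rrs1 (1.05 ± 0.14 against sham, 0.02 against 0 h) and Nolc1 (0.84 ± 0.18 and 0.02) and the chaperone Hsp90aa1 (0.86 ± 0.18 and 0.17) had the same pattern. Cebpb, a hepatocyte transcription factor of the injury response, rose by 0.63 ± 0.14 and stood at 0.12 against 0 h, and it lost its call without sham replicate 1. Birc5 (5.25 against 0 h), Cdk1 (4.17) and Ccnd1 (2.52), in contrast, were as high against 0 h as against sham, and the S phase list had 28 of 37 members higher than at 0 h.

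**Figure D3:**
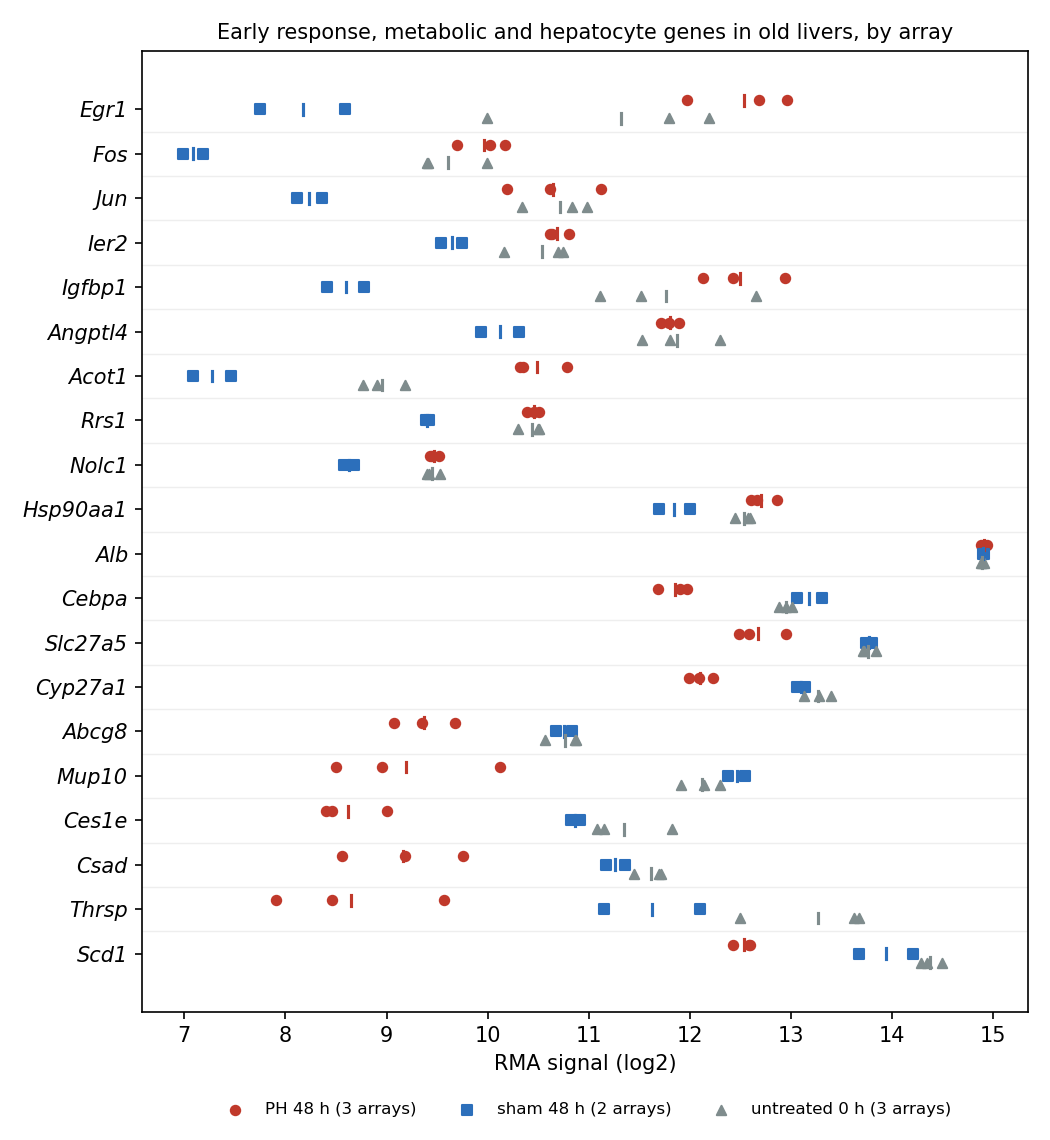
RMA signal (log2, horizontal axis) of 20 early response, metabolic and hepatocyte genes in old livers 48 h after PH (circles), 48 h after sham surgery (squares) and at 0 h (triangles), 1 symbol per array with group means as short bars. For Egr1, Fos, Jun and Igfbp1 the sham livers stand apart at the low end, while for Cebpa, Slc27a5 and Mup10 the PH livers do.

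Of 26 ribosome biogenesis genes 8 rose and 0 fell (median 0.32), beside 8.46% of all genes that rose, and 22 of the 26 differences were positive. Among the rises were the small nucleolar particle proteins Nop58 at 1.52 ± 0.29 and Nhp2 at 1.07 ± 0.29. Of the 26 genes 7 were lower in sham livers than at 0 h. Without sham replicate 1 or 2, 4 or 5 rose. Of 19 cytosolic chaperones 2 rose, Hsp90aa1 and Cct3 (0.43 ± 0.13), a share near the 8.46% of all genes. The count was 0 without sham replicate 2 and 1 without any other array, and 5 were lower in sham livers than at 0 h. Of 31 proteasome genes 5 rose, among them Psmd14 (0.65 ± 0.19), Psmd13 (0.63 ± 0.11), Psmc3 (0.42 ± 0.13) and Psmc5 (0.36 ± 0.09), and 1 rose without either sham array and 2 or 3 without a PH array. Psmd13 is uncertain, since 2 of its 4 probe sets fell. Of 24 endoplasmic reticulum stress genes 0 rose and 1 fell, Chac1, which degrades glutathione (-0.93 ± 0.23), a call lost without sham replicate 2 or PH replicate 1.

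Of 41 growth factors, receptors and inhibitors 2 rose and 2 fell, a share below the 15.0% of all genes. The Wnt amplifier Rspo3 (0.89 ± 0.20) and the epidermal growth factor receptor ligand Tgfa (0.78 ± 0.23) rose by their brightest probe sets. Their other probe sets did not pass, at -0.21 for Rspo3 and at -0.03 and 0.09 for Tgfa. The insulin receptor Insr was at 9.91, 10.06 and 10.15 in PH livers and 10.78 and 10.72 in sham livers and fell by 0.71 (-0.71 ± 0.18), and the neuregulin receptor Erbb3 fell by 0.70 (-0.70 ± 0.20). Each of the 4 lost its call without sham replicate 1, and Tgfa, Insr and Erbb3 also without replicate 2. Of 16 targets of YAP, the growth regulator of the Hippo pathway, 4 rose and 0 fell: Birc5 and Ccnd1, already described, and Fstl1 (1.57 ± 0.36) and Ajuba (1.48 ± 0.42), with a median of 0.17, and 2 rose without sham replicate 1. Of 29 interferon-induced genes 2 rose, Usp18 (1.33 ± 0.43) and Oasl1 (1.04 ± 0.34), and both lost the call without either sham array or PH replicate 3. The share of interferon-induced genes that rose was below the 8.46% of all genes. Usp18 stood at 10.54 on PH replicate 3 and at 9.18 and 8.95 on the others.

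Secreted hepatocyte products changed in few genes. Among 23 plasma protein genes 0 passed, beside 15.0% of all genes, with Alb at 0.01 ± 0.05 and Apoa2 at -0.14 ± 0.05. Among 22 acute phase genes 0 passed as well. Without PH replicate 3, 1 plasma protein gene fell, and without sham replicate 1, 1 acute phase gene rose. The acute phase protein Hp was at 14.84, 14.87 and 14.83 after PH and 14.86 and 14.75 after sham surgery. Saa2 ranged from 13.70 to 14.13 in PH livers, stood at 14.77 and 13.35 in sham livers and ranged from 11.07 to 14.25 at 0 h, and Lcn2 was at 0.81 ± 0.51, so untreated livers spread more than the surgery groups. For Afp, the fetal albumin relative, the brightest probe set was at 0.39 ± 0.23 without passing, and 2 of its 5 probe sets rose, by 2.21 and 1.47 (limma adjusted p = 0.0119 and 0.0110 over all probe sets). The pheromone carriers of the major urinary protein family fell, all 3 measured. Mup10 was at 8.50, 8.95 and 10.12 in PH livers, against 12.38 and 12.54 in sham livers (-3.27 ± 0.57, adjusted p = 0.000377), Mup3 at -0.47 ± 0.16 and Mup5 at -0.39 ± 0.12. Mup3 and Mup5 lost their calls without either sham array or PH replicate 1, and members of this family are near-identical, so probes may not separate them.

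Cebpa, the hepatocyte factor that restrains division and drives metabolic genes, was at 11.97, 11.90 and 11.68 after PH, against 13.06 and 13.31 after sham surgery. It fell by 1.33 (-1.33 ± 0.19, adjusted p = 3.25e-05) and stood below 0 h as well (-1.09, adjusted p = 5.63e-05). The groups were separated by over 1 unit. Of 17 hepatocyte transcription factors, 1 rose (Cebpb) and 1 fell (Cebpa), beside 15.0% of all genes that passed in either direction. Hnf4a, the main factor of hepatocyte identity, was at -0.14 ± 0.09 without passing. The chromatin remodeller Smarca2 was at 9.36, 9.35 and 9.42 after PH and 9.25 and 9.70 after sham surgery, without passing.

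Of 28 cytochrome P450 and related genes 0 rose and 4 fell, beside 6.56% of all genes that fell and 15.0% that passed in either direction. The 4 were Cyp3a25 (-0.78 ± 0.19), Cyp2c29 (-0.58 ± 0.11), Cyp2d10 (-0.50 ± 0.09) and Cyp2b13 (-0.40 ± 0.13). The list's median was -0.35, and 5 of the 28 had a positive difference. Cyp2c29 and Cyp2d10 passed without each array in turn, Cyp3a25 lost its call without either sham array, and Cyp2b13 lost it without sham replicate 1, PH replicate 2 or PH replicate 3. Of 29 conjugation genes 14 had a positive and 15 a negative difference. In this list 2 rose and 2 fell, a share near the 15.0% of all genes. The rises were Gstm3 of the glutathione transferases (1.80 ± 0.56) and the sulfotransferase Sult1a1 (0.87 ± 0.21), and the falls Sult5a1 (-1.08 ± 0.32) and Sult1c2 (-0.41 ± 0.12). The conjugation list had 0 members up and 0 down without sham replicate 1, 1 up and 0 down without sham replicate 2 or PH replicate 2, 1 and 1 without PH replicate 1, and 2 and 4 without PH replicate 3. The antioxidant targets of NRF2 were higher in 5 of 17 members and lower in 1. The quinone reductase Nqo1 was at 8.71, 8.01 and 8.66 after PH and 7.21 and 7.22 after sham surgery (1.24 ± 0.33), and the thioredoxin reductase Txnrd1 rose by 0.54 ± 0.13. The efflux pump Abcc4 rose by 1.82 ± 0.48, but its PH arrays were at 7.35, 7.41 and 9.69, and it lost the call without PH replicate 3 or sham replicate 2. The NADPH source Me1 fell (-0.55 ± 0.17). In this list 1 or 2 members rose without sham replicate 1 or 2, and 3 without PH replicate 3, and Me1 lost its call without any array but PH replicate 1.

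Bile acid genes had the lowest median of the lists, -0.55, with 0 of 22 members up and 5 down. Abcg8 and Abcg5, which together pump sterols into bile, were lower in PH livers: Abcg8 was at 9.08, 9.35 and 9.68, against 10.68 and 10.84 in sham livers (-1.39 ± 0.24, adjusted p = 0.000319), and Abcg5 fell by 1.27 (-1.27 ± 0.32). The bile acid ligase Slc27a5 was at 12.49, 12.58 and 12.95, against 13.80 and 13.74 (-1.10 ± 0.16), and Cyp27a1, which opens the alternative synthesis pathway, at 12.09, 11.99 and 12.23, against 13.06 and 13.14 (fell by 1.00, adjusted p = 9.79e-06). In all 3 the groups were apart on every array. Cyp7a1, the rate-limiting enzyme of the classical pathway, did not pass, at 9.44, 8.70 and 9.55 after PH and 9.55 and 10.61 after sham surgery. Cyp8b1, which sets the share of cholic acid, was at 9.28, 8.95 and 10.25, against 10.45 and 12.05 (-1.76 ± 0.68, adjusted p = 0.0814). Without sham replicate 2, 3 of the 22 fell, Abcg5 not among them. In cholesterol synthesis 1 of 20 members fell, the sterol reductase Tm7sf2 (-0.65 ± 0.13). The list's median was -0.09, but it was -0.42 without sham replicate 1 and 0.19 without sham replicate 2.

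Lipogenic genes fell, and the PH livers were further from untreated than from sham livers. Thrsp, a promoter of lipogenesis, was at 7.91, 8.46 and 9.57 after PH, 11.15 and 12.10 after sham surgery and 12.50, 13.62 and 13.67 at 0 h (-2.98 ± 0.79 against sham). The fatty acid desaturase Scd1 was at 12.59, 12.43 and 12.58, against 14.21 and 13.68 (-1.41 ± 0.40), its regulator Srebf1 fell by 1.28 (-1.28 ± 0.37) and the carboxylase Acacb by 1.21 (-1.21 ± 0.28). In this list 0 of 24 members rose and 7 fell against sham (median -0.25), and 14 were lower in PH livers than at 0 h (median -0.83), beside 8.62% of all genes. Against sham 2 of the 24 fell without sham replicate 1, 1 without sham replicate 2 and 4 without PH replicate 2. Genes that burn or store fatty acids included rises. The acyl-CoA thioesterase Acot1 was at 10.79, 10.35 and 10.32 after PH, 7.46 and 7.09 after sham surgery and 9.18, 8.77 and 8.91 at 0 h, and it rose by 3.21 ± 0.38 (adjusted p = 4.84e-06). Acot1 and its near-identical neighbour Acot2 (1.07 ± 0.33) may share probes. Of 23 oxidation and ketogenesis genes 3 rose, the third being Acadl (0.43 ± 0.11), and 1 fell, the peroxisomal thiolase Acaa1b (-0.82 ± 0.22). Of these 4 calls, that of Acot1 alone held in all fits with 1 array left out. Of 20 lipid droplet and uptake genes 5 rose and 0 fell, among them Angptl4, the apolipoprotein Apoa4 (14.46, 14.30 and 14.46 after PH, 12.59 and 13.06 after sham surgery, 1.58 ± 0.22), the lipase Lpl (1.40 ± 0.47) and the fatty acid binding protein Fabp2 (1.08 ± 0.23). The count was 2 or 1 without sham replicate 1 or 2 and 3 without any PH array, and Lpl lost its call without any 1 of the 5 arrays.

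Of 15 gluconeogenesis and glycogen genes 1 rose, Igfbp1, which that list carries as a gene of the same insulin-controlled programme, and of 14 glycolysis genes 2 rose, Ldha (0.43 ± 0.10) and Pgam1 (0.39 ± 0.08), of which Ldha lost its call without sham replicate 2. Of 24 amino acid catabolism genes 0 rose and 4 fell. Beside these lists, 8.46% of all genes rose and 6.56% fell, 15.0% in either direction. Csad, of taurine synthesis, was at 9.76, 8.56 and 9.18, against 11.17 and 11.36 in sham livers (-2.10 ± 0.48), the histidine lyase Hal fell by 1.56 (-1.56 ± 0.36), and Agxt (-0.90 ± 0.25) and Tdo2 (-0.72 ± 0.16) fell less. Without sham replicate 1 or 2, 2 or 1 of the 24 fell. In the urea cycle list Nags rose (0.45 ± 0.15) and Otc fell (-0.57 ± 0.19), and both lost their calls without any 1 of the 5 arrays. Zonation genes showed no common direction: of 20 pericentral genes 1 rose, the amino acid transporter Slc1a4 (1.45 ± 0.35), and 1 fell, Cyp27a1. Of 18 periportal genes 3 rose, the adhesion gene Cdh1 (1.84 ± 0.49), Apoa4 and Hsd17b13 (0.77 ± 0.24), and 1 fell, Hal. Of these zonation calls Slc1a4 was lost without sham replicate 2, Cdh1 and Hal without sham replicate 1, and Hsd17b13 without all but PH replicate 3.

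Other genes with the largest falls were the uridine phosphorylase Upp2, at 6.65, 6.34 and 7.75 in PH livers and 9.66 and 11.10 in sham livers (-3.47 ± 0.76), the methyltransferase Inmt (-2.92 ± 0.85), the carboxylesterase Ces1e (-2.25 ± 0.33) and the arrestin-like Arrdc3 (-2.22 ± 0.43). Ces1e had its sham livers close together, at 10.91 and 10.82, and Arrdc3 its PH livers, at 8.55, 8.27 and 8.35. Inmt lost its call without either sham array and without PH replicate 1 or 2, and Upp2 without sham replicate 2.

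Genes of the circadian clock also differed, and the labels give no hour of day at which livers were taken. Dbp, an output factor of the clock, was at 7.98, 6.66 and 7.15 after PH, against 9.06 and 11.61 after sham surgery and 8.09, 11.20 and 9.78 at 0 h (-3.07 ± 0.78, adjusted p = 0.00972). The 2 sham arrays lay over 2 units apart. The repressors Nr1d1 (-1.78 ± 0.31) and Nr1d2 (-1.60 ± 0.36) fell, and Arntl, the core activator that they repress, was at 9.25, 9.55 and 9.42, against 8.85 and 7.71 (1.13 ± 0.40, adjusted p = 0.0575). Of 21 clock genes 1 rose and 6 fell, but these counts were 0 and 1 without sham replicate 2, and 0 and 5 without PH replicate 2 or 3. The part of sampling time in these values was not tested.

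Markers of the liver's cell types were followed beside these changes. Of 11 hepatocyte and 9 bile duct markers 0 passed in limma in either direction, beside 15.0% of all genes. In the second list Epcam was at -0.15 ± 0.09 and Krt19 at 0.34 ± 0.28. Of 19 stellate cell and matrix markers 8 rose and 0 fell (median 0.78), and matrix genes were thus higher in the same arrays as the cycle genes. Col3a1 was at 12.25, 11.33 and 12.07 in PH livers, against 8.95 and 9.93 in sham livers (2.44 ± 0.69, adjusted p = 0.0194), Col1a1 at 10.01, 8.99 and 10.66, against 7.28 and 8.04 (2.23 ± 0.68), and Col4a1 (1.60 ± 0.44) and Lum (1.59 ± 0.36) rose too. The mean level of the list relative to 0 h was 0.88, 0.40 and 0.80 after PH and -0.25 and -0.08 after sham surgery. The calls for Col1a1, Col3a1 and Col4a1 were lost without either sham array, and 1 of the 19 rose without either sham array, 3 without PH replicate 1 and 4 without PH replicate 3. The part of stellate cell number in other results was not tested.

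Of 19 endothelial markers 1 rose, thrombomodulin (Thbd), which was at 10.02, 9.82 and 9.68 after PH and 6.63 and 6.87 after sham surgery (3.09 ± 0.57). Of 19 macrophage and 11 neutrophil markers 0 passed, beside 15.0% of all genes. Csf1r was at -0.45 ± 0.31, Cd5l at -0.11 ± 0.70, S100a9 at 0.07 ± 0.77 and Elane at -0.27 ± 0.17. Without sham replicate 2, 1 macrophage marker fell, and without PH replicate 2, 1 rose. The macrophage score relative to 0 h was -0.38, -0.43 and -0.46 in PH livers and -0.08 and -0.51 in sham livers, and the 0 h arrays ran from -0.74 to 1.03. Of 14 lymphocyte markers 4 fell. The antibody heavy chain gene Ighm was at 9.55, 10.18 and 10.45 in PH livers, against 10.92 and 13.70 in sham livers (-2.25 ± 0.64). The joining chain Jchain was at 7.59, 8.02 and 8.01, against 8.49 and 11.43 (-2.09 ± 0.65). The light chain gene Iglv1, which is outside this list, was at 7.16, 7.11 and 6.98, against 7.65 and 12.84 (-3.17 ± 0.73). In all 3 the high value was that of sham replicate 2, the 0 h livers of Iglv1 were at 7.44, 7.67 and 7.54, and all 3 lost their calls without that array. Gzma (-0.37 ± 0.11) and Ncr1 (-0.32 ± 0.09) of cytotoxic cells fell too, and with any 1 array left out the list's count was 1 or 2. Of 8 erythroid markers Car2 rose (0.50 ± 0.16) and Car1 (-0.91 ± 0.15) and Alas2 (-0.85 ± 0.26) fell, of which Car2 and Alas2 lost their calls without all but PH replicate 3, and of 6 adipose markers 1 fell, Lep (-0.42 ± 0.09).

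The 48 h response was set against that at 38 h in old livers to ask what changed in the 10 h between. The difference of the responses passed in 369 genes (2.03%), 187 positive (1.03%) and 182 negative (1.00%), or 212 and 117 with arrays centred on their medians. Of the positive genes 94 reached 2-fold, and of the negative genes 5. Of the 91 mitotic genes 28 passed and all 28 were positive, beside 1.03% of all genes. In the S phase list 0 of 37 passed, with a median of 0.24. With only the 18 arrays of old livers 15 positive genes passed in all, so the 28 mitotic calls do not all hold in that fit. Depdc1a, one of the mitotic genes, was at 7.23, 7.71 and 7.35 in PH livers at 48 h and at 5.15, 4.44 and 3.84 at 38 h, against sham livers at 4.10 and 3.96 at 48 h and 4.01 and 4.02 at 38 h, a difference of 2.94 ± 0.54. Ube2c (3.40 ± 0.90), Ect2 (3.32 ± 0.68), Nuf2 (3.20 ± 0.62) and Ccnb2 (2.90 ± 0.72) had the other largest positive differences. The clock genes Dbp (-5.46 ± 1.10), Nr1d2 (-2.17 ± 0.51) and Nr1d1 (-2.04 ± 0.43), the macrophage receptor Cd163 (-1.44 ± 0.38) and the ribonuclease Pnldc1 (-1.12 ± 0.22) had the largest negative ones.

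The 38 h PH arrays were uneven. Ube2c stood at 10.76, 8.27 and 6.62 on the 3 PH arrays of that time. Replicate 1 was thus near the level of 48 h and replicate 3 at that of sham arrays (6.93 and 7.05). Birc5, at 10.23, 7.85 and 5.50, had the same order, and the replication gene Rrm2 was at 11.30, 9.93 and 10.37. Over the 37 S phase genes the mean level relative to 0 h was 1.30, 0.87 and 0.02 on these arrays. For the list, replicate 3 was thus at the level of untreated livers. At 48 h all 3 PH arrays were high in Birc5 and Rrm2. Over time the mean level of the 20 mitotic kinase and cyclin genes relative to 0 h was followed on 3 PH arrays each. It stood at 0.10 ± 0.10 (SD over arrays) for 24 h, 0.87 ± 0.75 for 38 h and 2.39 ± 0.11 for 48 h. For the 37 S phase genes it was -0.02 ± 0.23, 0.73 ± 0.65 and 1.01 ± 0.26. The standard errors and p-values of the 48 h minus 38 h differences pool 1 spread per gene over 14 groups. They do not reflect in full the wider spread at 38 h and may be too small. The count of 369 depended on single arrays. It was 59 or 14 without sham replicate 1 or 2 of 48 h, 81 or 29 without sham replicate 1 or 2 of 38 h, 116, 129 or 136 without PH replicate 1, 2 or 3 of 48 h, and 723 or 179 without PH replicate 2 or 3 of 38 h. Without PH replicate 1 of 38 h the count was 379. The lowest median correlation of a 38 h PH array with its group was 0.946, for replicate 3.

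**Figure D4:**
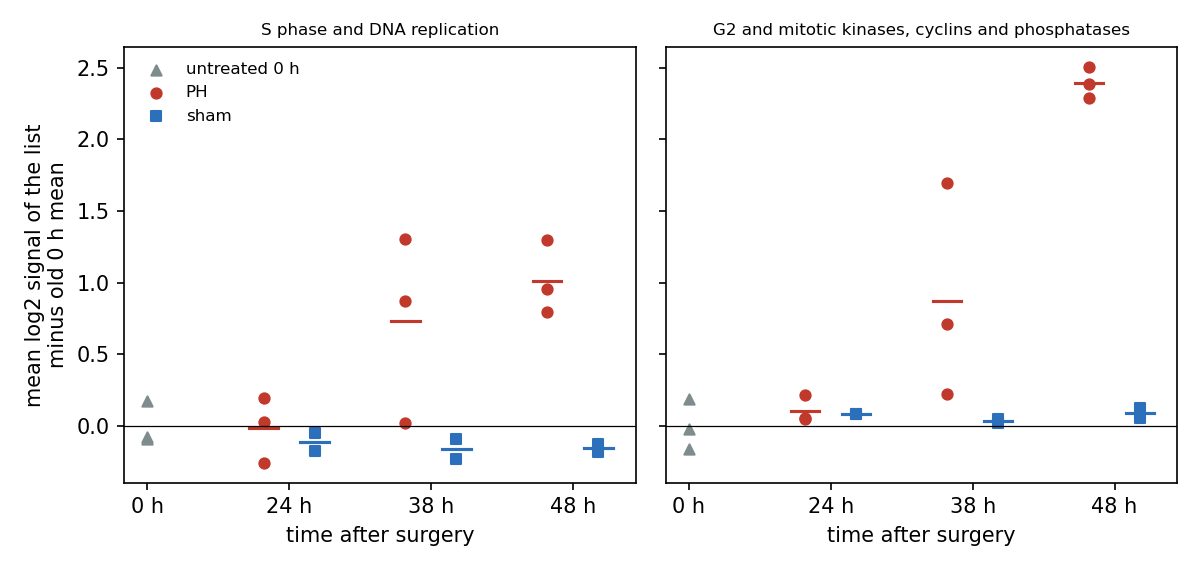
Mean log2 signal of the S phase list (left) and of the mitotic kinase and cyclin list (right) in old livers relative to the old 0 h mean (vertical axis), by time after surgery (horizontal axis, evenly spaced), with PH left of sham at each time. Symbols are single arrays and bars are group means. PH arrays at 48 h reach 2.29 to 2.51 on the right, while those at 38 h spread between 0.22 and 1.69, and sham arrays of both lists stay near 0.

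Old and young livers were compared to ask whether the response at 48 h depends on age. In young livers 3340 genes (18.4%) passed in either direction. No gene passed for a difference of the responses in limma (0 of 18193, 0%), 378 had an unadjusted p under 0.05, and the alternative settings gave 0 to 3. The smallest adjusted p was 0.0800, for the zinc finger gene Zfp438 (old minus young 0.72), named after its value was seen. A p that misses the threshold does not show that the ages respond alike. For Birc5 the difference of the responses was 0.14 ± 1.03, with a response of 5.49 in old and 5.35 in young livers. For Cdk1 the responses were 4.18 and 4.17, for Rrm2 4.02 and 4.06, for Ccnd1 2.52 and 2.98 and for Cebpa -1.33 and -1.31, old first. The median response of the 91 mitotic genes was 1.93 in old and 2.21 in young livers, and that of the S phase list 1.10 and 1.34. Across 18193 genes the old and young responses, which share no arrays, had r = 0.911, a description since genes are not independent. Of the genes that passed in each, 1857 passed in both, all in the same direction, 67.9% of the old list and 55.6% of the young list. Wider gaps, each without passing, were seen in Igfbp1 (3.90 in old, 2.66 in young), Abcc4 (1.82 and 0.38), Col3a1 (2.44 and 0.96) and Iglv1 (-3.17 and -0.40), the gene with 1 high old sham array.

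**Figure D5:**
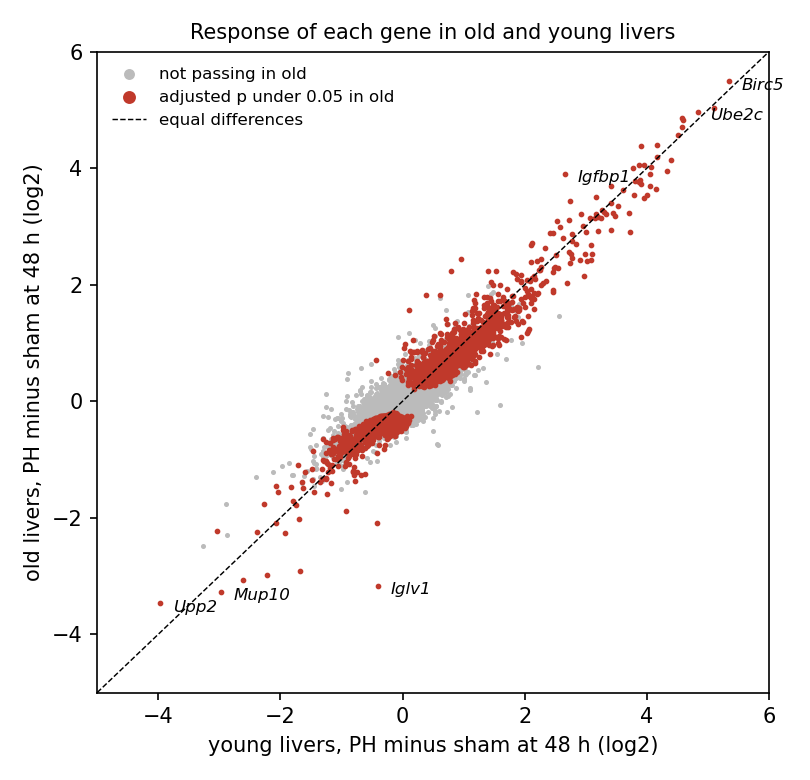
Difference of PH minus sham at 48 h (log2) of each of 18193 genes in old livers (vertical axis) against young livers (horizontal axis). Red points passed an adjusted p of 0.05 in old livers, and the dashed line marks equal differences. Birc5 (5.49 in old, 5.35 in young) lies on the line, and Iglv1 (-3.17 and -0.40) lies away from it.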

How the data were processed

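RNA of mouse livers was measured on Affymetrix arrays (moe430_2), 1 sample per array. The deposited values are log2 signals made by the authors with RMA, per the submitters' processing notes. RMA corrects background, equalises arrays and summarises probes, so global shifts are removed. Its version and the set of arrays normalized jointly are, in the sources used here, not given, and arrays carry no counts, so their number limits precision.

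Probe sets were named by the platform table. The probe set with the highest mean stood for each of 18193 genes, 9010 of which had several. The 64 controls, the 932 probe sets with several symbols and the 9160 not listed were left out. Group means were fitted over 35 arrays in 14 groups with limma 3.58.1 in R 4.3.3, with eBayes (21 residual and 3.29 prior degrees of freedom) and Benjamini-Hochberg adjustment. Contrasts were PH against sham, each against 0 h, and the differences between ages and times. On simulated data 89% of 2-fold and 99% of 4-fold shifts were recovered, and 4.08% of the calls were false. The simulated noise was independent and had 1 spread per gene in all groups. The real groups differ in spread, so these shares do not give the power in these data.

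The members, the 49 lists and the tests were chosen with earlier results of these data known. Named genes are the 10 largest rises and falls with groups that do not overlap (true of 59.6% of all genes), up to 4 passing members of each list (or else the 2 brightest), 25 panel genes and the 5 largest differences each way between times. Deviations of same-numbered arrays correlated at -0.09 and -0.19. With 2 sham arrays their deviations mirror each other, so these values cannot tell whether replicate numbers pair arrays. The main fit used no pairing. Alternatives changed the probe set, filter, scaling, variance model, arrays and control. Figures used matplotlib.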

Additional observations from a re-analysis of the deposited data

Results flagged for a closer look

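The response to PH differed between 48 h and 38 h in old livers in 369 genes, by the test of the difference in limma. That test pools 1 spread per gene over 14 groups, while the 38 h PH arrays were more uneven than those of 48 h. The named positive differences, 48 h minus 38 h, were Ube2c (3.40), Ect2 (3.32), Nuf2 (3.20), Depdc1a (2.94) and Ccnb2 (2.90). With 1 array left out, Depdc1a passed in 8 of 10 fits, Nuf2 in 7, Ect2 in 6, Ccnb2 in 2 and Ube2c in 1, and Ube2c ranged from 2.44 to 4.51 in them. The named negative differences were Dbp (-5.46), Nr1d2 (-2.17), Nr1d1 (-2.04), Cd163 (-1.44) and Pnldc1 (-1.12). With 1 array left out, Dbp, Nr1d1 and Pnldc1 passed in 7 of 10 fits, Nr1d2 in 3 and Cd163 in 2. Dbp stood at 7.98, 6.66 and 7.15 in PH livers at 48 h, against 9.06 and 11.61 in sham livers, and at 8.91, 9.93 and 9.10 in PH livers at 38 h, against 6.55 and 7.29 in sham livers.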

How the results depend on the processing

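Of 142 named genes that passed for PH against sham, 73 passed without each array in turn and 69 did not. The counts of genes passed depended on the variance estimate and on single arrays. For PH against sham (2733) the count was 4525 of 34945 when probe sets were tested singly, 6525 with array weights, 4503 with only the 5 arrays compared, 1529 with only the 18 arrays of old livers, 4243 without the arrays of low correlation, and 908 to 2030 with 1 array left out. For PH against 0 h (3075) it was 5790 by probe set, 4685 with array weights, 2013 with the 18 old arrays, and 1956 to 3001 with 1 array left out. For sham against 0 h (4003) it was 7168 by probe set, 2626 with the 18 old arrays and 1301 to 4564 with 1 array left out. For old minus young (0) it was 1 with the mean of probe sets, 1 with quantile normalization, 1 with trend and robust, 3 with array weights and 0 to 1 with 1 array left out. For 48 h minus 38 h (369) it was 214 with quantile normalization, 1206 with array weights, 18 with the 18 old arrays and 14 to 723 with 1 array left out. With the replicate block 2922 genes passed for PH against sham, but whether the numbers pair the arrays is not known. Of 165 named genes 82 had several probe sets, and in 56 of these all probe sets had the same direction. In 3 genes a probe set passed in the other direction. Directions reversed with the probe set of largest variance for Acadl (-0.083), Psmd13 (-0.998) and Epcam (0.50). With the mean of probe sets they reversed for Psmd13 (-0.065) and Epcam (0.17). Differences near 0 also changed sign: Alb was at -0.000229 with centred arrays, and Cd5l at 0.00137 with the block and 0.052 with pooled shams. With 1 array left out Alb ran from -0.00741 to 0.022, Hp from -0.016 to 0.10, Cd5l from -0.47 to 0.26, S100a9 from -0.45 to 0.59, Saa2 from -0.82 to 0.60 and Smarca2 from -0.32 to 0.13. The cause was not tested.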
